A study of Mus musculus with 19 samples.

Results

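The comparison described here set mouse mammary carcinoma cells taken from obese hosts against the same cells taken from lean hosts, at the earlier of the study's 2 time points. Its members were the 9 libraries labelled as midpoint, 14 days after implantation: 5 from obese animals (HFD in the titles) and 4 from lean animals (Chow), of 19 libraries in all. All hosts were of the c57bl6 strain, and all received E0771 cells carrying the mCherry fluorescent protein, implanted into the mammary fat pad. The tumors were dissociated, mCherry-positive cells were collected by flow sorting from each tumor, and total RNA was sequenced. The labels do not give the age or sex of the hosts, the length of the feeding or what the diets held.

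E0771 is a mammary carcinoma line of C57BL/6 origin that grows in immunocompetent hosts, so every tumor here comes from 1 line and no other genetic background is represented. Tumor cells in an obese host grow beside enlarged, lipid-laden adipocytes and receive more circulating fatty acids, insulin and leptin than those in a lean host. Cells can burn imported fatty acids in mitochondria, store them in lipid droplets coated by perilipins, or use glucose and serine carbon to build nucleotides and the reducing power of NADPH. The gene groups below follow those routes, then the machinery that makes RNA and protein, the stress pathways, and the surface and adhesion genes.

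The 9 libraries held between 44174080 and 56996252 counts. Levels are in CPM, the count relative to the library's total after scaling by the trimmed mean of M-values, ± on a CPM is the SD over the 4 lean or 5 obese libraries, and ± on a log2 difference is its standard error in the fit, always obese against lean. Of the line's markers, Vim was at 5996 CPM in lean and 5223 CPM in obese hosts, Cd44 at 722 and 469 CPM and Krt8 at 29.2 and 47.8 CPM. The keratin Krt14 and the hormone receptor Pgr had no count in any of the 9 libraries, and Krt18, Krt19, Epcam, Cdh1, Krt5 and Trp63 each averaged under 0.2 CPM in both groups. The label of carcinoma cells therefore rests mainly on the mCherry sort, with Krt8 the only listed keratin above 0.2 CPM. The mesenchymal genes Vim and Cd44 cannot tell carcinoma cells from other cells that express them.

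Libraries of the same group differed among themselves in a way that follows base composition. The slope of a gene's deviation from its mean log2 CPM over 10 percentage points of GC content was 0.44, 0.11, 0.12 and 0.37 in the 4 lean libraries and 0.33, 1.52, 1.21, 0.67 and 1.02 in the 5 obese ones. The groups overlapped, and the difference of 0.69 had a 2-sided exact permutation p of 0.0476 (0.136 after Benjamini-Hochberg adjustment over 15 library-level measures). Mitochondrially encoded genes took 10.4 ± 1.41% of counts in lean and 6.96 ± 1.05% in obese libraries, with no overlap (exact p = 0.00794, the smallest that 4 against 5 libraries allow; adjusted 0.119). The 7SK RNA, a small RNA without a poly(A) tail, took 2.43 ± 0.318% and 4.05 ± 1.81% of counts (exact p = 0.135, adjusted 0.238). Means of some leukocyte marker lists were lower in obese libraries before the adjustment over the 15 measures, and none passed after it: 10 genes expressed across leukocytes averaged 4.27 ± 0.313 in lean and 3.53 ± 0.240 in obese libraries on the log2 CPM scale (exact p = 0.0238, adjusted 0.136), and 16 macrophage markers averaged 4.09 ± 0.520 and 3.18 ± 0.373 (exact p = 0.0397, adjusted 0.136). The dendritic cell mean differed by -0.41 (exact p = 0.0397, adjusted 0.136), and the neutrophil, T and NK cell and B cell means by 0.07, 0.06 and -0.26 (exact p = 0.905, 0.889 and 0.286). The exact p rose above 0.05 for the slope when any library but obese replicate 1 was left out, and for both marker means without obese replicate 1, 2, 4 or 5.

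**Figure D1:**
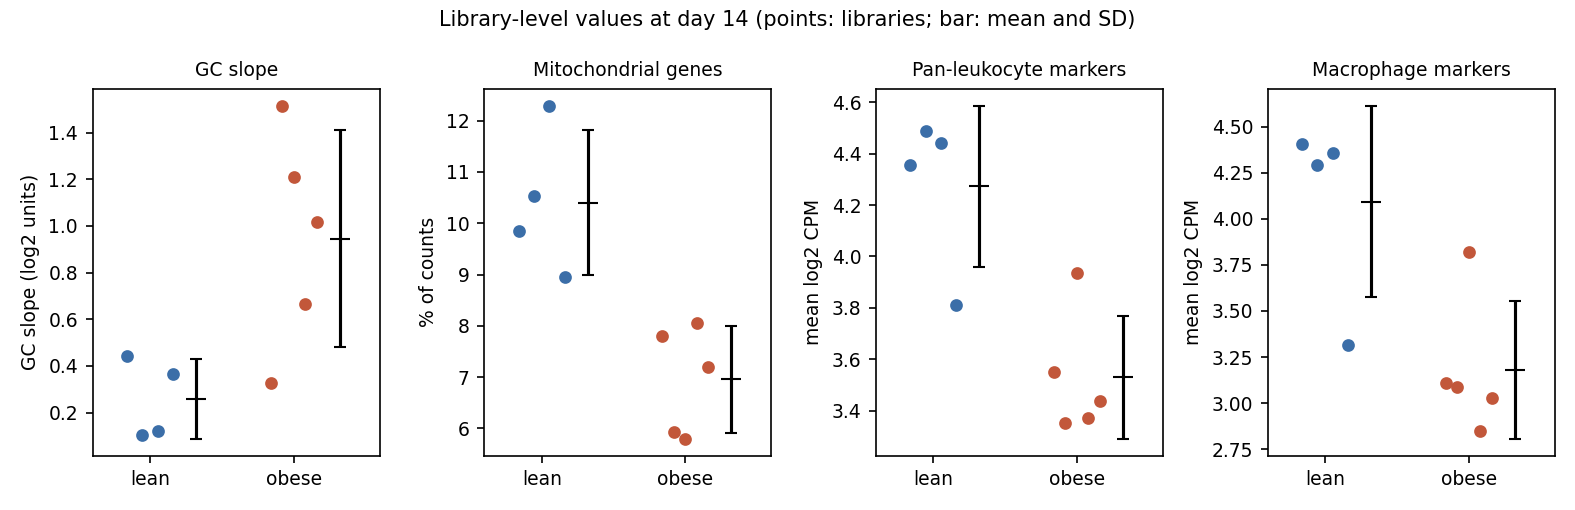
Each point is a day 14 library (4 lean, 5 obese); the vertical axes give the GC slope in log2 units per 10 percentage points of GC, the percentage of counts on mitochondrially encoded genes, and the log2 CPM averaged over pan-leukocyte or macrophage markers. The bar is the mean with its SD; the mitochondrial share, 10.4% in lean and 6.96% in obese hosts, is the panel whose groups do not overlap.

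Every gene was therefore tested both without an adjustment and with each library's trend over GC content and transcript length removed. Below, log2 differences and their adjusted p are from the fit with the adjustment unless stated. CPM are without it unless called GC-adjusted, so a difference need not match the CPM beside it. Without it, 2726 of 16352 tested genes were higher and 2099 lower in obese hosts at an adjusted p under 0.05, which is 16.7% and 12.8% of the genes tested. With it, 1332 of 16122 were higher and 589 lower, or 8.26% and 3.65%. Both fits called 1257 genes, 715 higher and 542 lower, and none with opposite signs. A further 3524 calls were lost with the adjustment, 101 genes called without it had the opposite sign with it, and 664 genes were called only with it. The genes called higher without the adjustment had a median GC content of 55.8% and those called lower 44.8%, against 49.9% over all genes tested; with it the medians were 48.4% and 46.9%.

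**Figure D2:**
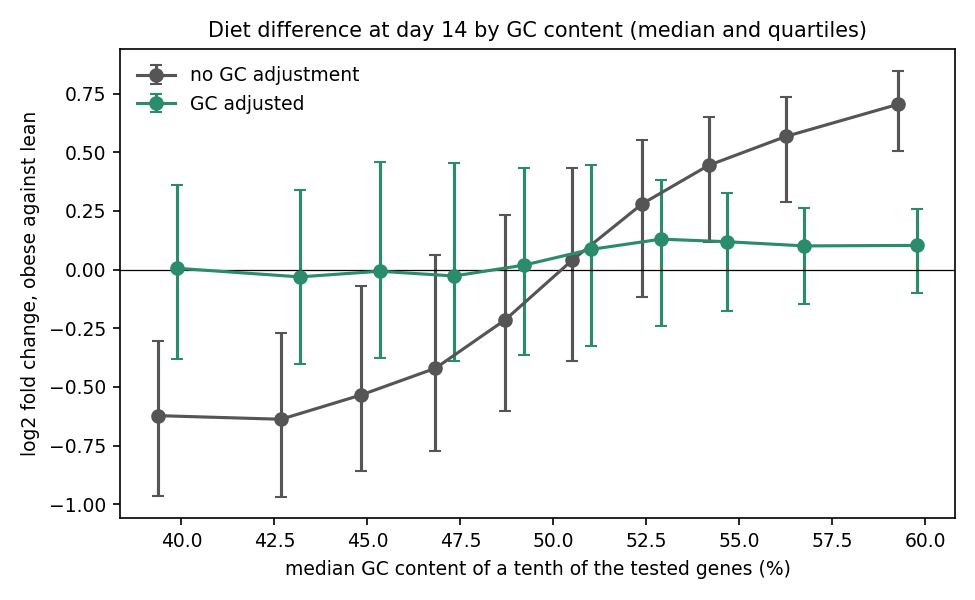
Tested genes in 10 groups of rising GC content; the horizontal axis is the median GC content of a group in percent, and the vertical axis the log2 fold change of obese against lean hosts at day 14 (point: median; bar: quartiles). Without the adjustment the median goes from -0.62 in the group lowest in GC to 0.70 in the highest; with it the medians lie between -0.03 and 0.13.

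All calls sat close to the threshold. The smallest adjusted p in edgeR's quasi-likelihood test was 0.0304 without and 0.0280 with the adjustment, values that many genes shared. In the same test 7502 and 5145 genes had an unadjusted p under 0.05. No gene passed in either fit when lean replicate 2 or 3 or obese replicate 2 or 3 was left out, when the 9 day 14 libraries were fitted alone, or when the mean of the pan-leukocyte markers was added as a covariate. Those 4 libraries hold the 2 lowest and the 2 highest GC slopes. Without obese replicate 1, the obese library with the lowest slope, the calls rose to 7946 without and 4286 with the adjustment. They fell to 2597 and 1067 without lean replicate 1, and to 2625 and 1045 without obese replicate 5. Leaving out those 4 libraries in turn still gave 3459 to 4025 genes with an unadjusted p under 0.05 with the adjustment and 5325 to 5884 without, and DESeq2 called 2966 and 6206 genes on all 18 libraries. Every called gene that could still be tested kept its sign in each of these alternatives. The genes were picked on the same libraries, most of which each alternative reused, so a kept sign is no independent support.

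Part of the genes that burn fatty acids rose. Of 25 tested genes of fatty acid oxidation, 6 were higher and none lower with the GC adjustment (6 and 1 without), with a median log2 difference of 0.28 against 0.06 over all genes. Acaa2, the mitochondrial thiolase that releases acetyl-CoA in the last step of beta-oxidation, was at 22.3, 25.8, 20.9 and 26.6 CPM in lean and at 39.1, 61.6, 63.5, 49.1 and 37.0 CPM in obese hosts. Every obese library lay above every lean one, as for 4.9% of all tested genes, and the log2 difference was 1.07 without and 0.84 ± 0.15 with the adjustment (adjusted p = 0.0304 and 0.0280). Slc25a20, the carrier that brings acylcarnitines into the mitochondrion, was at 27.5, 30.7, 26.8 and 32.8 CPM in lean and 38.8, 55.8, 48.6, 50.7 and 40.6 CPM in obese hosts, again without overlap (0.97 ± 0.19, adjusted p = 0.0280). Echs1 and Eci2, which act on the enoyl-CoA intermediates, passed only with the adjustment (0.85 ± 0.23 and 0.67 ± 0.15).

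Most called lipid droplet genes were higher. Of 18 tested genes of droplets and lipolysis, 4 were higher and 1 lower with the adjustment (9 and 2 without), with a median of 0.41. Plin2, the droplet coat protein of most cell types, was at 290, 259, 258 and 290 CPM in lean hosts and at 342, 694, 559, 447 and 352 CPM in obese hosts. The lean values were tight, the obese values spread over a range of their own above them, and the difference of 0.76 ± 0.17 hardly changed with the adjustment (0.80 without; adjusted p = 0.0280). Plin3, a coat protein shared with endosomal traffic, rose by 0.58 ± 0.18, and Abhd5, which activates the triglyceride lipase, rose by 0.81 ± 0.20 only with the adjustment. Lpin2, a phosphatidate phosphatase, was the member that fell (-0.55 with the adjustment; Lpin2 was chosen after its value was seen).

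Plin1, the perilipin of fat cells (chr7:79721164-79732776 in mm10), showed the widest gap in this group at a very low level. Its raw counts were 1, 7, 5 and 10 in lean and 48, 97, 37, 84 and 81 in obese libraries, or 0.0976 ± 0.0717 and 1.38 ± 0.587 CPM. The groups did not overlap, and the log2 difference was 3.81 without and 3.30 ± 0.78 with the adjustment (adjusted p = 0.0304 and 0.0280). Of the other adipocyte markers, Lipe, which encodes the hormone-sensitive lipase, also separated the groups, at 6.78 ± 0.483 and 12.1 ± 3.14 CPM (0.83 and adjusted p = 0.0304 without the adjustment, 0.49 and 0.0714 with it). Several defining markers were near 0: Adipoq had 4 and 5 counts in all in the lean and obese libraries, Lep 6 and 2, Cidec 6 and 2, and Retn 2 and 3. Over the 9 adipocyte markers, 1 of 4 tested was called higher with the adjustment (Plin1 itself) and none lower, and 2 higher and 1 lower without it. Fabp4 was at 7.19 and 4.02 CPM and Pparg at 1.93 and 0.538 CPM. The mean log2 CPM of the list was 0.829 ± 0.235 in lean and 1.27 ± 0.260 in obese libraries (exact p = 0.0556, adjusted 0.136), and the summed level ranged from 14.4 to 18.5 CPM in lean and 13.2 to 21.7 CPM in obese libraries. At day 21 Plin1 had 0 counts in the 4 complete lean libraries and 1, 21, 0, 0 and 5 in the 5 obese ones (adjusted p = 0.499 with the adjustment).

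Most sphingolipid genes called with the adjustment were higher. Of 21 tested, 4 were higher and 1 lower with the adjustment, 19% and 4.76%, where 8.26% and 3.65% of all genes were. The share lower was thus close to that of all genes. Without the adjustment 4 were higher and 5 lower, where 16.7% and 12.8% of all genes were. Cers5, a ceramide synthase, rose by 1.10 ± 0.27 with the adjustment and by 0.61 without. Its unadjusted level was 109 ± 17.8 CPM in lean and 165 ± 46.0 CPM in obese hosts. Asah1, the acid ceramidase that breaks ceramide down in lysosomes, was at 148, 298, 290 and 152 CPM in lean and at 168, 26.6, 42.4, 104 and 81.7 CPM in obese hosts. It fell by 0.86 with the adjustment and by 1.39 without (adjusted p = 0.0359 and 0.0304), although obese replicate 1 lay within the lean range. Degs1, which makes ceramide from dihydroceramide, and Sgms1, a sphingomyelin synthase, passed only with the adjustment (0.52 ± 0.14 and 0.70 ± 0.20); without it Sgms1 was at -0.03.

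Glucose carbon was represented by 21 tested genes of glycolysis and lactate transport, of which 11 were higher and 1 lower without the adjustment and 4 higher and none lower with it. Ldha, which turns pyruvate into lactate, went from 1272 ± 228 to 1962 ± 579 CPM (0.62 ± 0.18, adjusted p = 0.0380). Gpi1, the phosphoglucose isomerase, was at 556, 404, 472 and 565 CPM in lean and 567, 1020, 943, 605 and 634 CPM in obese hosts, with 565 and 567 CPM as the closest values (0.57 ± 0.17). Pfkp, the platelet-type phosphofructokinase, rose by 0.73 ± 0.20 with the adjustment only (0.29 without, adjusted p = 0.0959). Gapdh (0.58 ± 0.16) has many processed pseudogenes, among which its reads could be split, so its value is uncertain.

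Nucleotide and serine pathways were among the groups with the largest share of calls. Of 27 tested genes of the pentose phosphate route and nucleotide synthesis, 10 were higher and none lower with the adjustment (11 and 3 without), 37.0% against the 8.26% of all genes, with a median of 0.38. Pgd, the phosphogluconate dehydrogenase that yields NADPH, was at 127, 86.1, 103 and 136 CPM in lean and at 123.2, 252, 327, 168 and 162 CPM in obese hosts. Obese replicate 1 lay in the lean range and the other 4 lay above it (1.30 ± 0.28, adjusted p = 0.0280). Adsl, of purine synthesis, rose by 0.92 ± 0.24. Tyms, the thymidylate synthase, passed only with the adjustment (0.93 ± 0.20).

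Of 15 tested genes of serine and folate-cycle metabolism, 6 were higher and none lower with the adjustment (5 and 0 without), with a median of 0.40. Psat1 and Psph catalyse successive steps of serine synthesis, and they rose by 0.88 ± 0.21 and 0.87 ± 0.22. Psat1 was at 257, 223, 227 and 278 CPM in lean and 344, 364, 453, 262 and 300 CPM in obese hosts, with obese replicate 4 alone inside the lean range. Ahcy, which clears S-adenosylhomocysteine after methylation reactions, rose by 0.73 ± 0.19. Mthfd2l, a mitochondrial folate enzyme, passed only with the adjustment (0.77 ± 0.22, with 5.36 and 5.44 CPM).

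Antioxidant genes rose more often than they fell. Of 25 tested genes of the NRF2 and glutathione defense, 8 were higher and 1 lower with the adjustment (8 and 2 without), with a median of 0.45. Prdx6, a peroxiredoxin that reduces phospholipid peroxides, was at 159, 141, 138 and 176 CPM in lean and at 179, 332, 302, 195 and 205 CPM in obese hosts (1.00 ± 0.25). Gss, the glutathione synthetase, rose by 1.14 ± 0.26, the peroxiredoxin Prdx2 by 0.87 ± 0.21, and the thioredoxin Txn1 by 0.68 ± 0.17 with the adjustment only (all at an adjusted p of 0.0280).

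**Figure D3:**
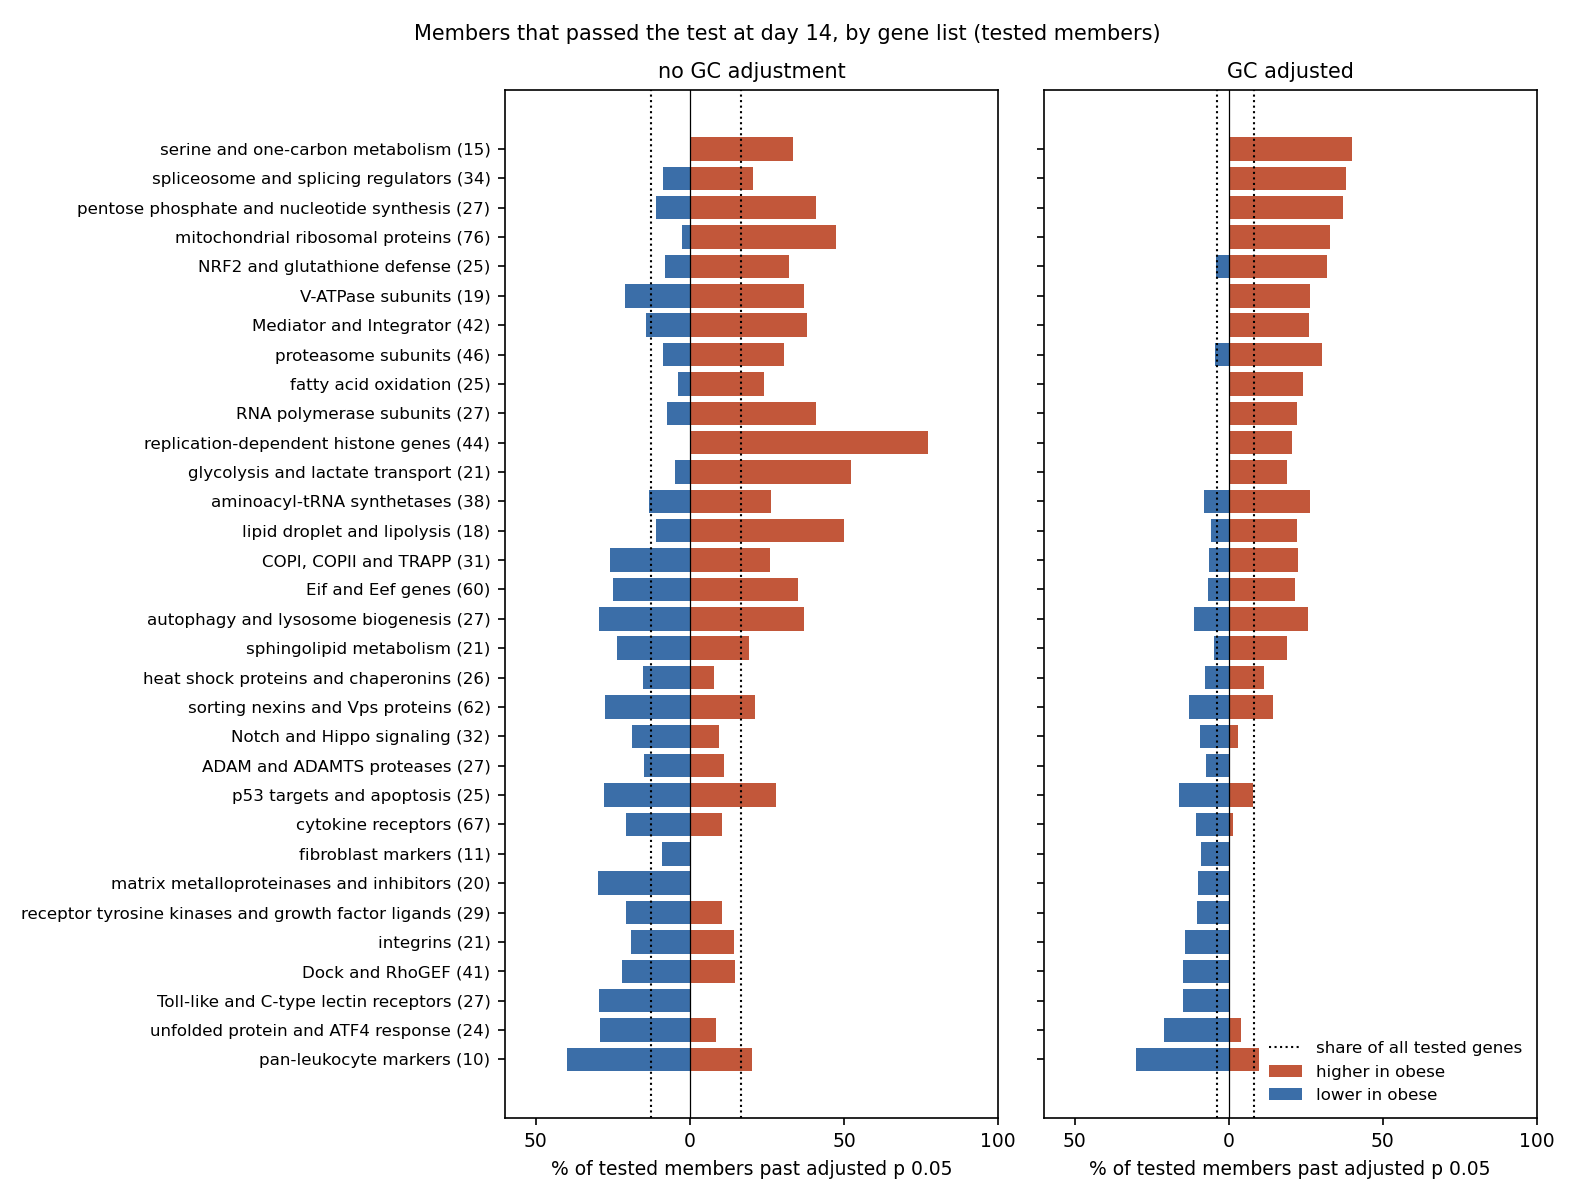
Share of each list's tested members that passed the adjusted p threshold of 0.05, higher (right) or lower (left) in obese hosts, without (first panel) and with (second panel) the GC adjustment, for the 32 lists described; the number of members tested with the adjustment stands after each name and dotted lines mark the shares over all genes tested (16.7% and 12.8%, then 8.26% and 3.65%). Histone genes show the widest change between the panels, from 34 to 9 of 44.

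Genes of mitochondrial protein synthesis gave the largest number of increases with the adjustment among the 76 lists, but not the largest share. Of 76 tested genes for proteins of the mitochondrial ribosome, 25 were higher and none lower with the adjustment, and 36 were higher and 2 lower without it. The share higher with it was 32.9%, against 8.26% of all genes. It was 40% in the serine list, 38.2% in the spliceosome list and 37% in the pentose phosphate and nucleotide list. The median was 0.35 with the adjustment and stayed between 0.29 and 0.42 when any single library was left out. Mrpl17 was at 57.8, 53.2, 49.2 and 69.0 CPM in lean and at 66.9, 120, 110, 73.8 and 83.9 CPM in obese hosts (1.502 ± 0.34 with the adjustment, 0.67 without). Mrpl19 was at 43.1, 39.4, 35.4 and 45.5 CPM and at 51.7, 66.3, 59.2, 48.4 and 55.1 CPM, without overlap (1.00 ± 0.21). Mrpl51, Mrps26 and Mrps14 rose by 1.26 ± 0.28, 1.21 ± 0.26 and 1.18 ± 0.24, the last with the adjustment only. Mtg1, a GTPase that helps assemble the mitochondrial large subunit, and Mrpl15 were among the 15 largest increases (1.41 ± 0.32 and 1.46 ± 0.36), while the share of counts from mitochondrially encoded genes was lower in all 5 obese libraries.

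Other translation genes moved in both directions. Of 38 tested aminoacyl-tRNA synthetases, which charge tRNAs in the cytoplasm or, as Tars2 does, in mitochondria, 10 were higher and 3 lower with the adjustment (10 and 5 without). Farsa, a subunit of the phenylalanine enzyme, was at 94.1, 76.7, 80.3 and 106 CPM in lean and at 108, 201, 170, 106 and 130 CPM in obese hosts (0.99 ± 0.23). Of 60 tested genes with Eif or Eef names, mostly initiation and elongation factors, 13 were higher and 4 lower with the adjustment (21 and 15 without); 1 of those lower is Eif2ak3, a kinase that acts on such a factor. Eif3i rose by 1.18 ± 0.27, the RNA helicase Eif4a1 by 0.76 ± 0.18 with the adjustment only, and Eif1ad by 0.68 ± 0.15.

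In 4 groups of nuclear machinery all calls with the adjustment were on the higher side. Of 34 tested genes of the spliceosome, 13 were higher with a median of 0.33, although 7 were higher and 3 lower without the adjustment. Prpf19, a ubiquitin ligase of the activated spliceosome, was at 219, 179, 167 and 224 CPM in lean and at 233, 378, 335, 262 and 302 CPM in obese hosts (0.78 ± 0.19), and Prpf31 rose by 0.68 ± 0.17. Snrpc and Srsf7 passed only with the adjustment (1.04 ± 0.24 and 0.80 ± 0.19). Of 42 tested Mediator and Integrator genes, which link transcription factors and RNA 3' processing to RNA polymerase II, 11 were higher with the adjustment, against 16 higher and 6 lower without. Med20 was at 26.5, 24.9, 22.8 and 29.9 CPM in lean and at 33.7, 39.6, 37.6, 30.2 and 30.8 CPM in obese hosts, with 29.9 and 30.2 CPM as the closest values (0.85 ± 0.19). Of 27 tested RNA polymerase subunit genes, 6 were higher with the adjustment (11 higher and 2 lower without), among them Polr2l (0.75 ± 0.21).

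Histone genes made up the 4 largest increases called in both fits among genes averaging at least 1 CPM, and most of their calls were lost with the adjustment. Of 44 tested genes for replication-dependent histones, 34 were higher without the adjustment, with a median of 1.23, and 9 with it, with a median of 0.64; none was lower in either. Their mRNAs normally end in a stem-loop in place of a poly(A) tail. Hist1h1d, a linker histone, was at 263, 273, 234 and 452 CPM in lean and at 440, 1103, 851, 302 and 551 CPM in obese hosts, and Hist4h4 at 21.5, 24.7, 22.3 and 42.5 CPM and at 52.9, 138, 116, 26.4 and 65.4 CPM. Lean replicate 4 stood above the other lean libraries in both genes, and obese replicate 4 lay below it. With the adjustment Hist4h4 rose by 2.33 ± 0.52 and Hist1h1d by 2.07 ± 0.53. Other RNAs without a poly(A) tail were high in the same libraries: Rpph1, the RNA of ribonuclease P, was at 27981 and 19414 CPM in obese replicates 2 and 3 and at 3644 to 6418 CPM in the lean group, and its call was lost with the adjustment (0.57 ± 0.34, adjusted p = 0.254). The part of such RNAs in the histone values was not tested, and histone genes are near-identical copies among which reads could be split.

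Chaperones and the proteasome followed no common direction in all their members. Of 46 tested proteasome genes, 14 were higher and 2 lower with the adjustment (14 and 4 without). The assembly chaperone Psmg1 rose by 0.57 ± 0.13 without overlap, and Psmd9 by 0.74 ± 0.19. Psmc6, an ATPase of the base, was at 53.7, 146, 172 and 73.0 CPM in lean and at 82.7, 14.5, 24.0, 41.6 and 26.04 CPM in obese hosts, and fell by 1.09 (adjusted p = 0.0285).

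Of 26 tested heat shock proteins and chaperonins, 3 were higher and 2 lower with the adjustment (2 and 4 without). Heat shock factor, the activator of many of these genes, binds inverted repeats of a short unit, and the promoters of 3 called members are shown because they hold such repeats and their genes moved in opposite directions. The motif GAANNTTC, searched on both strands and identical on each, was in the 300-base window (250 bases before to 50 after the start) of 10 of 20 heat shock genes with a RefSeq promoter, and in 7.86% of all 32851 promoters. Counted by gene, as for the list, it was in 9.04% of all 27025 genes. The longer form with 3 units, GAANNTTCNNGAA on either strand, which contains the short one, was in 3 of the 20 and in 0.603% of all promoters (0.662% of all genes). Capitals mark GAANNTTC in these windows, 5' to 3' along the gene's strand, from RefSeq on GRCm38.p6: Hspa1a at chr17:34972107-34972406 (minus strand), Hspd1 at chr1:55087883-55088182 (minus strand) and Hspe1 at chr1:55087898-55088197 (plus strand).
Hspa1a: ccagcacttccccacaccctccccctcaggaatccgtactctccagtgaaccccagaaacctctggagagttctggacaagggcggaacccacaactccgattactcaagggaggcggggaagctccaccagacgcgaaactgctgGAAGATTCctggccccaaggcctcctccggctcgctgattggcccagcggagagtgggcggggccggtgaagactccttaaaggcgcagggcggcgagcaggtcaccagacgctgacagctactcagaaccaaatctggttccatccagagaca
Hspd1: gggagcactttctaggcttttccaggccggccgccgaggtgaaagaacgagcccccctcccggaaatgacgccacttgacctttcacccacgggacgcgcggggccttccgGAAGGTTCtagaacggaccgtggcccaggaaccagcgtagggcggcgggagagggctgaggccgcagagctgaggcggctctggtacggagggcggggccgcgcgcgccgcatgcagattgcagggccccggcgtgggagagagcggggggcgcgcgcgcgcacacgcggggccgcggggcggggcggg
Hspe1: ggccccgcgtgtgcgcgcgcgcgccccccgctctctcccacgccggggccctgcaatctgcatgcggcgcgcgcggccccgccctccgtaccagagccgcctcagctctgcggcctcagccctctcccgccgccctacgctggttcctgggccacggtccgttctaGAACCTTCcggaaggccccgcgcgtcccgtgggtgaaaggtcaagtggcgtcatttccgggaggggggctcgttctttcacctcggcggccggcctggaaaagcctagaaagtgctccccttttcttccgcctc

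Hspa1a, the stress-induced HSP70, was at 4.45, 3.32, 3.66 and 2.40 CPM in lean and at 0.871, 1.18, 2.76, 1.10 and 1.70 CPM in obese hosts, and fell by 1.77 with the adjustment and 1.19 without (adjusted p = 0.0280 and 0.0417). Its near-identical neighbour Hspa1b, with which reads could be split, was at 18.5 and 17.4 CPM (-0.48, adjusted p = 0.398). Hspd1 and Hspe1, the partner chaperonins of the mitochondrial matrix, lie head to head, and the windows shown hold the same match read from opposite strands. Both genes are in each motif count over the 20 heat shock genes above, so the same stretch entered each count for both. Another RefSeq window of Hspd1, at chr1:55088194-55088493, held no match. Hspd1 was at 166, 280, 314 and 167 CPM in lean and at 194, 39.5, 55.5, 122 and 95.2 CPM in obese hosts and fell by 0.85 with the adjustment (adjusted p = 0.0357). Hspe1, picked after its value was seen, was higher with the adjustment (0.79, adjusted p = 0.0375) and did not pass without it (0.27, adjusted p = 0.234). Cct7, a subunit of the cytosolic chaperonin, rose by 1.24 ± 0.29 with the adjustment and by 0.60 without. It was at 561, 444, 424 and 612 CPM in lean and at 584, 1072, 911, 614 and 684 CPM in obese hosts. A motif match is a description of the window and says nothing of binding here.

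The unfolded protein response of the endoplasmic reticulum had 5 decreases with the adjustment, the most of the stress lists, and as many without it (7) as the p53 list. Of its 24 tested genes, 5 were lower and 1 higher with the adjustment (7 and 2 without), 20.8% against the 3.65% of all genes, with a median of -0.07. Eif2ak3, which encodes the sensor kinase PERK, was at 35.1, 39.1, 41.4 and 32.3 CPM in lean and at 30.6, 13.2, 13.2, 25.3 and 23.2 CPM in obese hosts. The groups did not overlap, as for 3.14% of all genes in this direction, and the gene fell by 0.75 with the adjustment and 0.81 without. Hspa5, the chaperone BiP, was at 485, 679, 877 and 473 CPM in lean and at 489, 147, 196, 370 and 276 CPM in obese hosts (-0.59 ± 0.16, adjusted p = 0.0315). Canx, the lectin chaperone calnexin, fell by 0.57 with the adjustment (adjusted p = 0.0281) and by 1.21 without. Asns, the asparagine synthetase under control of ATF4, was the member that rose (0.76 ± 0.20, with the adjustment only).

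Of 25 tested p53 targets and apoptosis genes, 4 were lower and 2 higher with the adjustment and 7 and 7 without; the 2 higher are 8% of the list, against 8.26% of all genes. Gadd45a, a growth arrest gene induced by DNA damage, was at 20.2, 21.2, 27.0 and 16.9 CPM in lean and at 15.98, 8.57, 6.58, 12.3 and 10.2 CPM in obese hosts, without overlap (-0.89 ± 0.19, adjusted p = 0.0280). Casp9, an initiator caspase, rose by 0.74 ± 0.17. Zmat3, an RNA-binding p53 target, passed only with the adjustment (0.98 ± 0.21).

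Of 19 tested subunits of the vacuolar proton pump, 5 were higher and none lower with the adjustment (7 and 4 without), with Atp6v0e at 1.25 ± 0.31 and Atp6v0a1 at 1.13 ± 0.27. Of 31 tested genes of the COPI and COPII coats and the TRAPP tethers, 7 were higher and 2 lower with the adjustment and 8 and 8 without. The 2 that fell with it encode subunits of the same COPI coat: Arcn1 was at 90.7, 200, 234 and 111 CPM in lean and at 115, 17.6, 32.1, 69.3 and 36.0 CPM in obese hosts (-1.03 ± 0.24), and Copb1 fell by 0.82. Another COPI subunit, Copz1, rose by 0.63 ± 0.17. Of 62 tested sorting nexin and Vps genes, 9 were higher and 8 lower with the adjustment and 13 and 17 without, with Vps33a of the tethering complexes for lysosomes at 0.51 ± 0.11 and Snx25 at -0.79 ± 0.20.

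Of 27 tested autophagy genes, 7 were higher and 3 lower with the adjustment (10 and 8 without). Atg16l1 and Atg5 encode partners in the complex that lipidates LC3, and they had opposite signs (0.89 ± 0.20 with the adjustment only, and -0.97 ± 0.27). Atg5 was at 7.31, 14.9, 16.7 and 8.31 CPM in lean and at 9.64, 1.25, 2.85, 5.63 and 2.82 CPM in obese hosts, with obese replicate 1 inside the lean range. Becn1 (0.63 ± 0.18) passed with the adjustment only and was at -0.01 without it. Lean replicates 2 and 3 were the highest and obese replicates 2 and 3 the lowest for Arcn1, Hspd1 and Psmc6, the same 4 libraries that had the extreme GC slopes. These genes were called lower after the trend was removed as well, and the part of base composition in what remained was not tested.

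**Figure D4:**
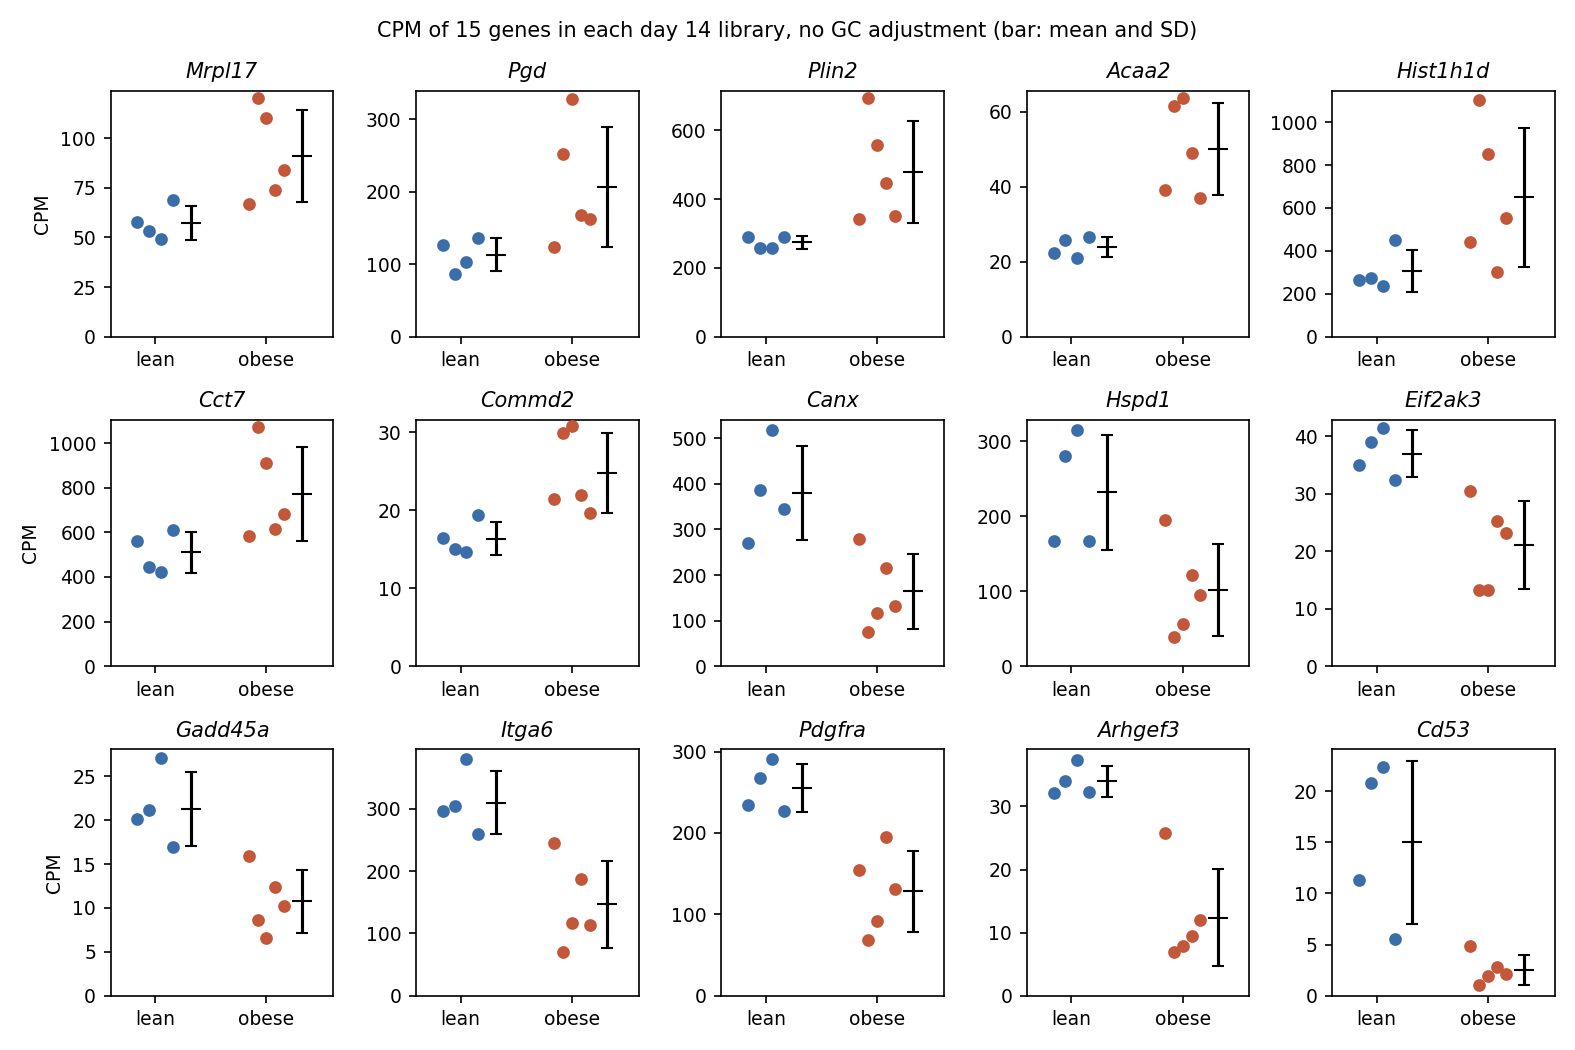
CPM without the GC adjustment in each day 14 library (4 lean, 5 obese) for 15 genes named in the text, with the mean and SD as a bar; every vertical axis starts at 0. Plin2, Acaa2, Commd2, Eif2ak3, Gadd45a, Itga6, Pdgfra, Arhgef3 and Cd53 separate the groups, while in each of the other panels at least 1 obese library lies within the lean range.

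With the adjustment, the calls among integrins and growth factor genes were on the lower side. None of 23 tested cadherins and protocadherins or 13 tested junction and keratin genes was called with it. Of 21 tested integrins, 3 were lower and none higher with the adjustment, 14.3% lower against the 3.65% of all genes. Without it 4 were lower and 3 higher, where 12.8% and 16.7% of all genes were. Itga6, the laminin-binding alpha 6 chain (chr2:71745616-71858416), was at 297, 305, 380 and 259 CPM in lean and at 246, 69.9, 116, 188 and 113 CPM in obese hosts, without overlap (-0.83 ± 0.19, adjusted p = 0.0280). Its partner Itgb1 was at 280, 545, 662 and 333 CPM and at 330, 65.3, 119, 225 and 135 CPM (-0.86 ± 0.21). Itga9 fell by 1.53. The fourth named member, Itgam, a myeloid chain, was at 23.3 and 7.35 CPM and passed without the adjustment only (adjusted p = 0.0537 with it).

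Of 29 tested receptor tyrosine kinases and growth factor ligands, 3 were lower and none higher with the adjustment (6 and 3 without). A receptor and its ligand were among them. Pdgfra (chr5:75152291-75198204) was at 234, 268, 291 and 227 CPM in lean and at 154, 67.9, 91.6, 195 and 131 CPM in obese hosts, without overlap (-0.65 ± 0.15), and Pdgfa fell by 0.84 (51.1 ± 13.1 to 29.7 ± 10.4 CPM). Mertk, a receptor for the uptake of dying cells, fell by 0.83. Pdgfra is also a fibroblast marker: of 11 tested fibroblast markers it was the 1 called, the list's median was 0.31, its summed level was 1921 to 2267 CPM in lean and 982 to 2524 CPM in obese libraries, and Dcn, Lum, Fap and Postn each averaged under 1.5 CPM in both groups. Col3a1 carried most of that sum (1790 and 1538 CPM, -0.27 ± 0.25, adjusted p = 0.489).

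Genes with ADAM or ADAMTS names, metalloproteinases and guanine nucleotide exchange factors gave further decreases. Adam17, the sheddase that frees Notch, TNF and EGF receptor ligands, was at 65.4, 117, 136 and 66.9 CPM in lean and at 62.8, 22.2, 29.9, 50.7 and 37.2 CPM in obese hosts (-0.68 ± 0.16). The other gene of this list called lower with the adjustment was Adamtsl3 (-0.55 ± 0.13, 205 ± 27.2 to 116 ± 25.9 CPM), which is ADAMTS-like and not itself a protease. The 2 made up 7.41% of 27 genes with ADAM or ADAMTS names, against the 3.65% of all genes, with none higher. Without the adjustment 4 were lower and 3 higher. Mmp14, a membrane-bound collagenase, and Mmp12, the macrophage elastase, were the 2 of 20 metalloproteinase genes called lower (-0.81 ± 0.25 and -1.97 ± 0.59), with none higher (6 and 0 without). Mmp12 rested on an uneven lean group of 5.41, 5.92, 19.8 and 1.34 CPM. Of 32 tested Notch and Hippo genes, 6 were lower and 3 higher without the adjustment. With it 3 were lower: Adam17, already counted above, the ligand Dll1 (-0.91 ± 0.27, with the adjustment only) and the kinase Lats2 (-0.73 ± 0.23). With the adjustment 1 was higher, Wwtr1, which encodes TAZ (0.76 ± 0.23, with the adjustment only).

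Of 41 tested Dock and RhoGEF genes, which load small GTPases with GTP, 6 were lower and none higher with the adjustment (9 and 6 without). Arhgef3 (chr14:27238039-27403904) was at 32.1, 34.0, 37.4 and 32.3 CPM in lean and at 25.8, 6.88, 7.83, 9.46 and 11.96 CPM in obese hosts. The lean values were tight, obese replicate 1 stood apart from the other obese libraries and still below every lean one, and the gene fell by 1.18 (adjusted p = 0.0287). Dock2, which is largely restricted to blood cells, was at 9.22, 14.6, 15.4 and 7.76 CPM and at 4.77, 3.80, 4.95, 4.62 and 5.31 CPM (-1.01 ± 0.28). Fgd4 fell by 1.96 with the adjustment, at 1.04 ± 0.289 and 0.169 ± 0.0719 CPM.

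Of 27 tested Toll-like and C-type lectin receptors, 4 were lower and none higher with the adjustment (8 and 0 without), with a median of -0.57. Tlr2 was at 11.6, 12.4, 18.1 and 5.63 CPM in lean and at 5.40, 2.57, 3.17, 5.21 and 5.33 CPM in obese hosts (-1.24 ± 0.26), and Tlr13, Clec4a2 and Tlr1 fell by 1.72, 1.83 and 1.62. Of 67 tested cytokine receptors, 7 were lower and 1 higher with the adjustment and 14 and 7 without. Il13ra1, a chain of the receptor for interleukins 4 and 13, was at 0.571, 0.710, 1.56 and 0.453 CPM in lean and at 0.290, 0, 0, 0.0731 and 0.0361 CPM in obese hosts (-2.68 ± 0.58), a gene at the edge of detection. Tnfrsf21, a death receptor, fell by 1.58, and Il17ra was the member that rose (0.49 ± 0.13).

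Among 10 pan-leukocyte markers, 3 were lower and 1 higher with the adjustment (4 and 2 without). Cd53 was at 11.3, 20.8, 22.3 and 5.50 CPM in lean and at 4.88, 1.02, 1.90, 2.76 and 2.11 CPM in obese hosts (-1.96 ± 0.39), Cd48 fell by 1.63 and Lcp1 by 1.02. Arhgdib, the member that rose, was at 915 ± 97.4 and 1306 ± 270.4 CPM (0.60 ± 0.17), a level far above the other markers, and it set the direction of the summed level (1057 to 1217 CPM in lean and 1233 to 1893 CPM in obese libraries). No pan-leukocyte marker was at 0 in any library, and Ptprc, which encodes CD45, was at 3.91 and 1.14 CPM. Summed macrophage markers ranged from 253 to 559 CPM in lean and from 191 to 400 CPM in obese libraries. In sorted bulk RNA, fewer cells of a type and less RNA per cell cannot be told apart, and the part of leukocytes in the decreases was not tested beyond the fit with the leukocyte covariate. With the genes of the marker and immune lists left out of the fit, 1905 genes were called with the adjustment and 4877 without. That fit dropped only the listed genes and kept the same libraries, so its counts cannot show the part of leukocytes.

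Among genes averaging at least 1 CPM, the 15 largest decreases called in both fits were, by their adjusted size, Basp1, Ly86, Mmp12, Cd53, Rnf130, Clec4a2, Pid1, Hspa1a, Frmd4b, Lmo2, Ifit1bl1, Tlr13, Ms4a6d, Cd48 and Tlr1, with log2 differences from -2.15 to -1.62. All but Cd53 and Ms4a6d averaged under 10 CPM in the lean group, and in 9 of the 15 every obese library lay below every lean one (3.14% of all genes; the same number with GC-adjusted CPM, 2.02% of all). The 15 were picked by call and size on these same libraries, so a share above that of all genes was likely in advance. Basp1, a membrane-associated signalling protein, was at 4.47, 4.44, 8.02 and 2.04 CPM in lean and at 1.32, 1.02, 2.44, 1.64 and 1.19 CPM in obese hosts. Ly86, the MD-1 partner of a Toll-like receptor homologue on myeloid and B cells, was at 3.58, 8.07, 6.52 and 2.30 CPM and at 1.58, 0.556, 1.12, 1.06 and 1.12 CPM. Lean replicate 4 was the lowest lean library for Basp1, Ly86, Cd53, Tlr2, Tlr13 and Mmp12, and its macrophage marker mean was 3.32 against 4.29 to 4.41 in the other lean libraries.

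With the same floor of 1 CPM, which leaves out Plin1, the 15 largest increases were Hist4h4, Hist1h1d, Hist1h2ac, Hist1h2be, Wdr89, Ndufb2, Mrpl17, Ercc8, Mrpl15, Strada, Commd2, Adh7, Hist1h2bc, Sf3b5 and Mtg1, from 2.33 down to 1.41, and 3 of them separated the groups in CPM (4.9% of all genes) and 5 in GC-adjusted CPM (6.54% of all). The same limit holds, as these genes too were picked on these libraries. Commd2, of a family that assembles the endosomal Commander complex, was at 16.4, 15.01, 14.6 and 19.4 CPM in lean and at 21.4, 29.9, 30.7, 22.0 and 19.7 CPM in obese hosts (1.44 ± 0.31). Adh7, a retinol-oxidising alcohol dehydrogenase, was at 5.56, 5.52, 4.72 and 5.50 CPM and at 8.33, 10.98, 7.63, 7.42 and 6.79 CPM (1.43 ± 0.30; 0.63 without the adjustment). Ercc8, a transcription-coupled repair factor, rose by 1.502 ± 0.35, and Sf3b5, of the splicing factor that reads the branch point, by 1.41 ± 0.34. The adjusted sizes of these genes were larger than the unadjusted ones. The GC content of the 15 ranged from 39.8% to 46.1%, against a median of 49.9% over all genes tested. In the tenth of genes lowest in GC, the median difference was -0.62 without the adjustment and 0.006 with it. The 15 were ranked by adjusted size, and the part of base composition in that ranking was not tested.

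The other 44 lists did not meet the rule for description, which asked for at least 8 tested members and a share of calls 2 times that of all genes. Interferon-stimulated genes fell in 9 of 36 without the adjustment and in none with it, with a median of -0.57 and -0.28. The core of the interferon-stimulated response element is 2 GAAA units 2 bases apart on either strand. It was in 18 of the 28 of these genes with a RefSeq promoter, in 3.99% of all genes and in 3.44% of all promoters. Zinc finger genes of the Zfp series were called in 33 higher and 66 lower of 327 without the adjustment and in 17 and 19 with it. Centrosome and cilium genes went from 3 higher and 11 lower of 62 to 4 and 3, Rab GTPases from 9 and 12 of 49 to 3 and 3, and cytokines and chemokines from 0 and 10 of 55 to 0 and 3. Hypoxia genes gave 0 of 20 higher and 5 lower without and none with the adjustment, and Wnt genes 7 of 28 higher without and none with it. Collagens were called in 1 and 1 of 30, then 0 and 1, and cell cycle and replication genes in 8 and 1 of 31, then 5 and 0.

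At day 21 the same contrast called 1 gene in either fit, AU018091 (1.89 in both, higher in obese hosts; 800 and 1286 genes with an unadjusted p under 0.05). No gene passed the test of the difference between the day 14 and the day 21 effect of diet (5451 and 3655 with an unadjusted p under 0.05; smallest adjusted p 0.0983 and 0.0805). Of the 715 genes called higher at day 14 in both fits, 218 were higher in obese hosts at day 21 with the adjustment, 30.5% against 44.6% of all genes tested, and of the 542 called lower, 331 were lower, 61.1% against 55.4%. Without the adjustment 185 of the 715 were higher, 25.9% against 49.2%, and 257 of the 542 were lower, 47.4% against 50.8%. With the adjustment, the mitochondrial ribosomal list had a median of -0.08 at day 21, the spliceosome list -0.12 and the Toll-like and C-type lectin list 0.06.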

How the data were processed

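RNA was sequenced from mCherry-positive cells of 19 tumors, and the authors deposited a table of raw read counts per gene (39017 genes, 19 libraries) that holds whole numbers with no normalization, for the day 21 columns too; TopHat, DESeq and the mm10 build appear, with no role stated, in the submitters' processing notes, and the counting tool is not given in the sources used here. Samples were grouped by the diet and time labels. Lean day 21 replicate 4 holds 11889188 counts, all on chromosomes 1 to 5, and was left out of the fits, so 18 libraries entered. Genes with enough counts (filterByExpr) were tested with edgeR 4.0.16 (limma 3.58.1, R 4.3.3): trimmed-mean scaling, 4 group means, the quasi-likelihood test and Benjamini-Hochberg adjustment over all genes. For the adjusted fit, each library's deviation from a gene's mean log2 CPM (prior count 2) was regressed on GC content and log10 length (natural splines, 5 degrees of freedom each) of the longest GENCODE M21 transcript and entered as an offset. The scripts were tested on simulated data. Exact permutation tests compared library-level values, 2-sided.

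The members, the gene lists and the main fit over 18 libraries were chosen with earlier results of these data known. In those earlier results a fit of the day 14 libraries alone called no gene. The patterns that pick integrins, initiation factors, cytokines and their receptors were corrected after values had been seen. Lists with at least 8 tested members of which the share called in 1 direction with the adjustment was at least 2 times that of all genes were described (32 of 76). Named genes were the 15 largest increases and decreases called in both fits with at least 1 CPM, the 10 largest decreases outside marker and immune lists, up to 4 members per described list with the smallest adjusted-fit p, and the genes among the 5 largest unadjusted changes that lost their call. Some genes that this rule picks are not reported here. Each label names a tumor and no other unit. The p-values of the gene tests measure the spread between tumors within groups. That spread was estimated together over the 18 libraries of the 4 groups, day 21 included, and not from the day 14 tumors alone. Depths of 44174080 to 56996252 counts limit precision for genes under about 1 CPM. Alternatives were other filters, scalings, trend forms, tools, covariates, sets of libraries and a replicate block. Strand of the libraries is not given in the sources used here, so overlapping and antisense genes cannot be told apart. GC content was available for 37607 genes.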

Additional observations from a re-analysis of the deposited data

Results flagged for a closer look

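Of 330 groups of values (named genes and library-level measures, lean or obese), 23 held a library that stood apart from the rest of its group, 6.97 per 100; chance flags about 1 in 20. Lean replicate 4 gave most of them. It was high for the histone genes Hist4h4 (42.5 CPM), Hist1h2ac (18.8), Hist1h2be (109), Hist1h2bc (100.1), Hist2h4 (120.5), Hist1h4n (38.7) and Hist1h2ak (145.5), and for Wdr89 (299), Sf3b5 (35.8), Trappc5 (58.5), Psmg1 (45.7) and Mfap5 (0.529). The same library was low for Lmo2 (0.642 CPM), Tnfrsf21 (1.02) and the mean log2 CPM of macrophage markers (3.32 against 4.29 to 4.41 in the others). Among the other lean libraries, replicate 3 was low for Adh7 (4.72 CPM against 5.50 to 5.56) and replicate 2 for endothelial markers (mean log2 CPM 1.16 against 1.47 to 1.51).

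In the obese group, replicate 1 was high for Arhgef3 (25.8 CPM against 6.88 to 11.96) and Il13ra1 (0.290 against 0 to 0.0731), replicate 2 for Prpf31 (299 against 180 to 213), and replicate 3 for Mospd3 (10.8 against 1.35 to 4.06), Mfap5 (0.878 against 0.217 to 0.371) and the macrophage marker mean (3.82 against 2.85 to 3.11).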

How the results depend on the processing

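Counts are given as genes called with the GC adjustment and without it, against 1921 (1332 higher, 589 lower) and 4825 (2726 higher, 2099 lower). No gene was called, in either direction or fit, with the 9 day 14 libraries alone, with all 19 libraries (356 and 1427 with an unadjusted p under 0.05) or with a leukocyte covariate (2987 and 4080). DESeq2 called 2966 (1385 lower) and 6206, limma-voom with quality weights 5099 (2953 higher, 2146 lower) and 8458 (4250 higher, 4208 lower), and no filter on low counts 1811 and 3263 (1084 higher). The share of calls that were higher, 69.3% and 56.5%, was 52.1% and 33.2% with no filter, 53.3% and 49.6% with DESeq2, 57.9% and 50.2% with limma-voom, and 68.6% and 46.8% with RLE scaling. RLE scaling, GC content alone, a linear trend, a floor of 5 CPM in 4 libraries and the fit without marker and immune genes (added after the data were seen, as was RLE with the adjustment) kept the total within 1.5 times.

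Leaving out 1 library at a time gave 0 to 4286 genes with the adjustment (0 to 2463 higher, 0 to 1823 lower) and 0 to 7946 without (0 to 3983 higher, 0 to 3963 lower). The count was 0 without lean replicate 2 or 3 or obese replicate 2 or 3, 1067 and 2597 without lean replicate 1, and 1045 and 2625 without obese replicate 5. Without lean replicate 4, 897 genes were lower with the adjustment. The GC slope difference ranged from 0.55 to 0.84, the pan-leukocyte difference from -0.90 to -0.67 and the macrophage difference from -1.17 to -0.81. The exact p was above 0.05 for the slope without any single library but obese replicate 1, and for both marker means without obese replicate 1, 2, 4 or 5; fewer splits are possible with 8 libraries.

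Replicate numbers are shared by the lean and obese labels. The deviations of same-numbered libraries correlated at -0.40 to -0.18 (-0.26 to -0.09 with the adjustment), and no library matched its own number best. Replicates 2 and 3 held the lowest GC slopes of the lean group and the highest of the obese group. Whether the numbers name a shared unit was not tested beyond this and a replicate block. A replicate block left 1 gene called, higher, and 0 lower with the adjustment and 4392 without. Of named genes, Sgms1 (-0.0255), Cct3 (-0.00734) and Becn1 (-0.0146) changed sign without the adjustment and Col3a1 (0.0744) with limma-voom. No other named gene changed sign in any setting run, and the causes were not tested. The named genes were picked on these same libraries, so a kept sign is no independent support. Depth limits genes under about 1 CPM, such as Plin1 and Il13ra1.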
